A study of Mesocricetus auratus with 24 samples.

Results

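The 81 genes described here encode subunits of the 5 complexes of oxidative phosphorylation, out of 19938 genes tested. A gene was a member if its symbol began with Ndufa, Ndufb, Ndufc, Ndufs or Ndufv and a number (complex I), was Sdha, Sdhb, Sdhc or Sdhd (complex II), or began with Uqcr (complex III), Cox4 to Cox8 (complex IV) or Atp5 (complex V). The rule used names alone and no measured value. It gave 35 genes for complex I, 4 for complex II, 8 for complex III, 17 for complex IV and 17 for complex V.

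The tissue was the inferior colliculus (IC), the auditory midbrain nucleus where audiogenic seizures start, from 24 hamsters of 16 weeks and about 60 g, with 1 array per animal. Control Syrian hamsters and GASH:Sal hamsters, written GASH/Sal here, formed 2 strains of 12 animals each. GASH/Sal is a hamster line of the University of Salamanca bred for seizures evoked by loud sound, so a difference between the strains covers the whole genetic background of the line and not a single locus. The paper obtained its own GASH/Sal and Syrian hamsters from different facilities. If that held for these animals as well, strain and source cannot be told apart. In each strain 6 animals received auditory stimulation and gave tissue 60 min later, and 6 were left without it (naïve). The paper describes its stimulated GASH/Sal animals as having had a convulsive episode and its stimulated Syrian controls as having had no seizure. That description is of the paper's own, younger hamsters and not of these 24 animals. In every contrast of sound given here that includes GASH/Sal animals, an effect of sound and one of seizure in them cannot be told apart. The labels name no engineered allele, transgene or drug in any group. The arrays carry mouse probes, so a signal depends on how well a hamster transcript matches its probe set, and values are set side by side only within a gene. In a piece of whole IC, fewer cells of a type and less RNA per cell cannot be told apart.

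Oxidative phosphorylation makes most of the ATP of a neuron. Complex I and complex II pass electrons from NADH and succinate to ubiquinone, complex III hands them to cytochrome c, and complex IV gives them to oxygen, while complexes I, III and IV pump protons across the inner mitochondrial membrane. Complex V, the ATP synthase, lets the protons return through a ring in the membrane and couples that flow to ATP synthesis. The IC is known for a high metabolic rate, and seizures are known to raise the demand of neurons for ATP.

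Each complex holds subunits of different roles. In complex I the core subunits described here were Ndufs1, Ndufs3, Ndufs7, Ndufs8, Ndufv1 and Ndufv2. All 4 complex II genes were measured. Complex III members were the core proteins Uqcrc1 and Uqcrc2, the Rieske iron-sulfur protein Uqcrfs1 and the small subunits Uqcrb, Uqcrh, Uqcrq, Uqcr10 and Uqcr11. Complex V members were the F1 genes Atp5a1, Atp5b, Atp5c1, Atp5d and Atp5e, the 3 genes of the membrane ring Atp5g1, Atp5g2 and Atp5g3, and 9 genes of the stalk and membrane part. The symbol rule sorts by name, so Ndufa4, which is now known as a subunit of complex IV, stands with complex I, as does its relative Ndufa4l2, and Cox7a2l, a factor that joins complexes III and IV, stands with complex IV. Rows with several symbols held Cox7c, Ndufb4, Ndufb4b and Ndufs5-ps, which were not members. The subunits encoded by mitochondrial DNA fall outside the rule.

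The mean signals of the members lay between percentiles 7.24 (Cox7b2) and 99.8 (Uqcrh) of all genes, with a median percentile of 83.0. A percentile describes brightness on the array and is not a level of expression. It was under 50 for 20 members, 8 of them in complex I, 2 in complex III, 7 in complex IV and 3 in complex V. The standard deviation of a member over the arrays within groups had a median of 0.170 (log2), beside 0.161 over all genes. The steadiest and the most variable members were Ndufa9 (0.106) and Ndufs5 (0.305) in complex I, Sdha (0.131) and Sdhd (0.176) in complex II, Uqcrfs1 (0.170) and Uqcrb (0.253) in complex III, Cox6c (0.0864) and Cox5b (0.222) in complex IV, and Atp5a1 (0.0977) and Atp5l (0.296) in complex V. Atp5a1 encodes the alpha subunit of the catalytic head, and Atp5l encodes subunit g, which joins ATP synthases into dimers.

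Pairs of arrays correlated at 0.965 to 0.993 across genes. The arrays with the lowest mean correlation with the others of their group and label series were Syrian stimulated replicate 4 (0.969) and GASH/Sal naïve replicate 6 (0.972). The animals carry labels in 2 styles, called label series A (replicates 1 to 3 of every group) and B (replicates 4 to 6), with 12 arrays each. Neither the labels nor the methods say what the styles mean. Each group holds 3 arrays of both series, and the series was a term of the fit behind each value given here unless another fit is named. Neuron markers were bright in the tissue, with a mean log2 signal of 7.53 to 7.87 over the 14 listed genes in all arrays, beside a median gene mean of 4.90.

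GASH/Sal naïve replicate 6 stood apart in these genes, though not in these alone. It was the highest of its 6 arrays for 43 of 81 members (53.1%), beside 31.3% of all genes. Of all 24 arrays it was the highest for 26 members, a count without a share over all genes. Its value was above the mean of the other 5 arrays of the group for 65 of 81 members (80.2%), beside 56.7% of all genes, with a median difference of 0.22 (log2) beside 0.041. By complex this difference had a median of 0.23 in complex I, 0.21 in complex II, 0.31 in complex III, 0.081 in complex IV and 0.28 in complex V. Not every subunit followed: Cox5a, a nuclear subunit of complex IV, was 0.77 above the others, whereas Uqcrc2, a core protein of complex III, was at -0.61 and Sdha, the flavoprotein of complex II, at -0.36. In the same array mitochondrial ribosomal proteins were higher by a median of 0.145, cytosolic ribosomal proteins by 0.125, glycolysis genes by 0.196, cerebellum markers by 0.165, neuron markers by 0.108 and vessel markers by 0.300. The share above the mean of the other 5 arrays was 83.1% for mitochondrial ribosomal proteins, 80% for vessel markers and 40% for astrocyte and for microglia markers. Assembly factors had a median of 0.072, the tricarboxylic acid cycle 0.043, carriers and channels 0.019, biogenesis regulators -0.00025 and 5 related genes outside the symbol rule 0.213. For oligodendrocyte, blood, choroid plexus, astrocyte and microglia markers it was 0.073, 0.028, -0.022, -0.028 and -0.079. The part of these lists in the members' values was not tested. Replicate 5 of the same group was the lowest of its 6 arrays for 43 of 81 members (53.1%), beside 16.3% of all genes. The main results that rest on the naïve GASH/Sal group are therefore given with and without replicate 6.

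Averaged over members, the 4 groups overlapped. The median deviation of the 81 genes from their own means over all arrays ran from -0.022 to 0.082 in naïve Syrian, -0.057 to 0.066 in stimulated Syrian, -0.14 to 0.19 in naïve GASH/Sal and -0.11 to 0.041 in stimulated GASH/Sal animals. The widest range was that of naïve GASH/Sal, where replicates 5 and 6 formed its ends. In stimulated GASH/Sal animals the 3 arrays of series A lay between 0.025 and 0.041 and the 3 of series B between -0.11 and -0.079.

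**Figure D1:**
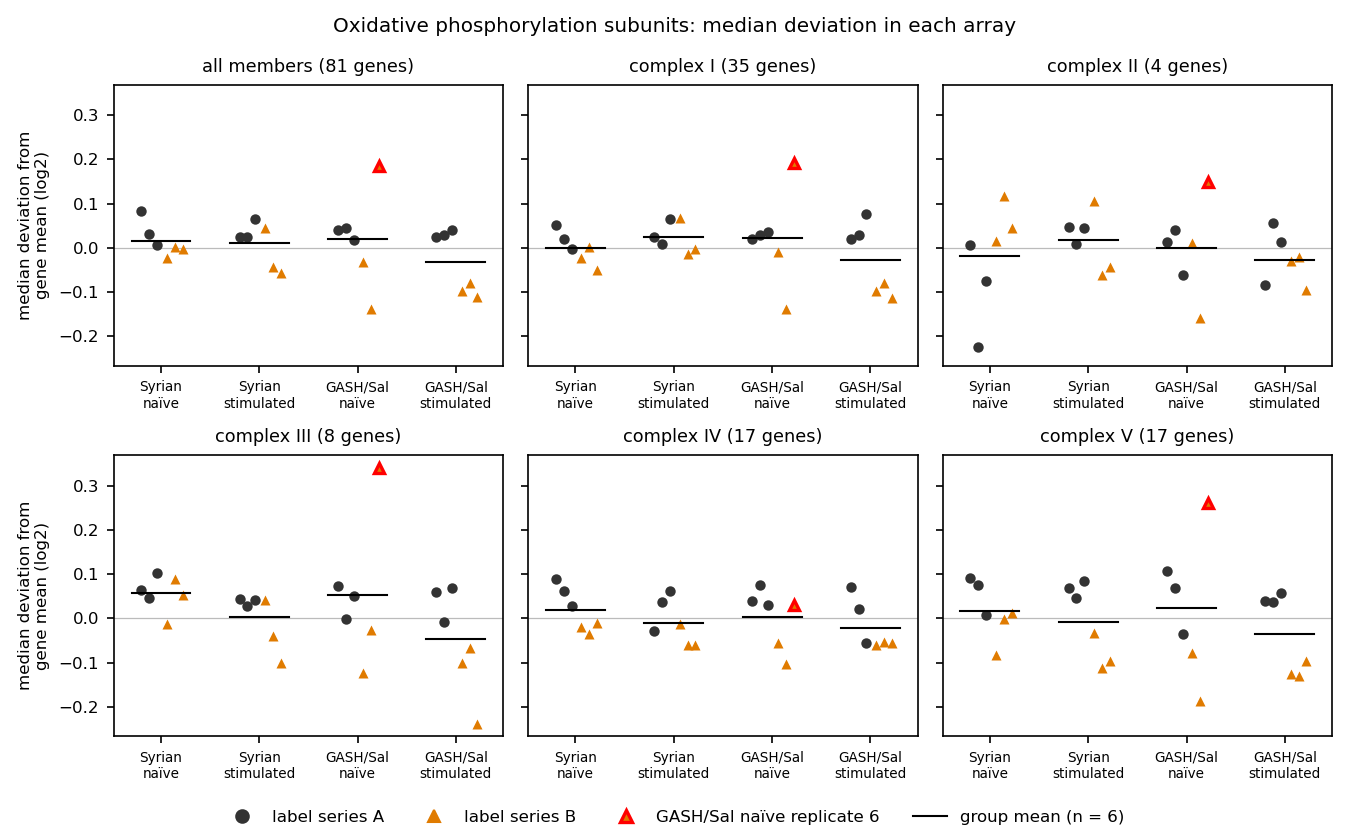
Each point is 1 array and shows the median, over the genes of a complex, of the log2 deviation from each gene's mean over 24 arrays (y axis), by strain and sound (x axis), with circles for label series A, triangles for series B and lines for the mean of 6 arrays. GASH/Sal naïve replicate 6, outlined in red, lies at 0.19 for all members and at 0.34 for complex III, above every other array in each of these.

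Members also varied together from array to array. After removing group and label series, the mean correlation over all pairs of members was 0.126 across 24 arrays, beside 0.0109 over all pairs of genes. It was 0.195 in complex V, 0.156 in complex I, 0.117 in complex III, 0.0458 in complex IV and -0.000619 in complex II. Cytosolic ribosomal proteins had 0.129. All pairs share the same arrays. Without GASH/Sal naïve replicate 6 the values were 0.0685, 0.0734, 0.0433, 0.0237 and 0.0851 for complexes V, I, III, IV and II, and 0.0654 for cytosolic ribosomal proteins. For all members the value was then 0.0534 and for all genes 0.0105, and without Syrian stimulated replicate 4 as well it was 0.0368 and 0.00351.

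**Figure D2:**
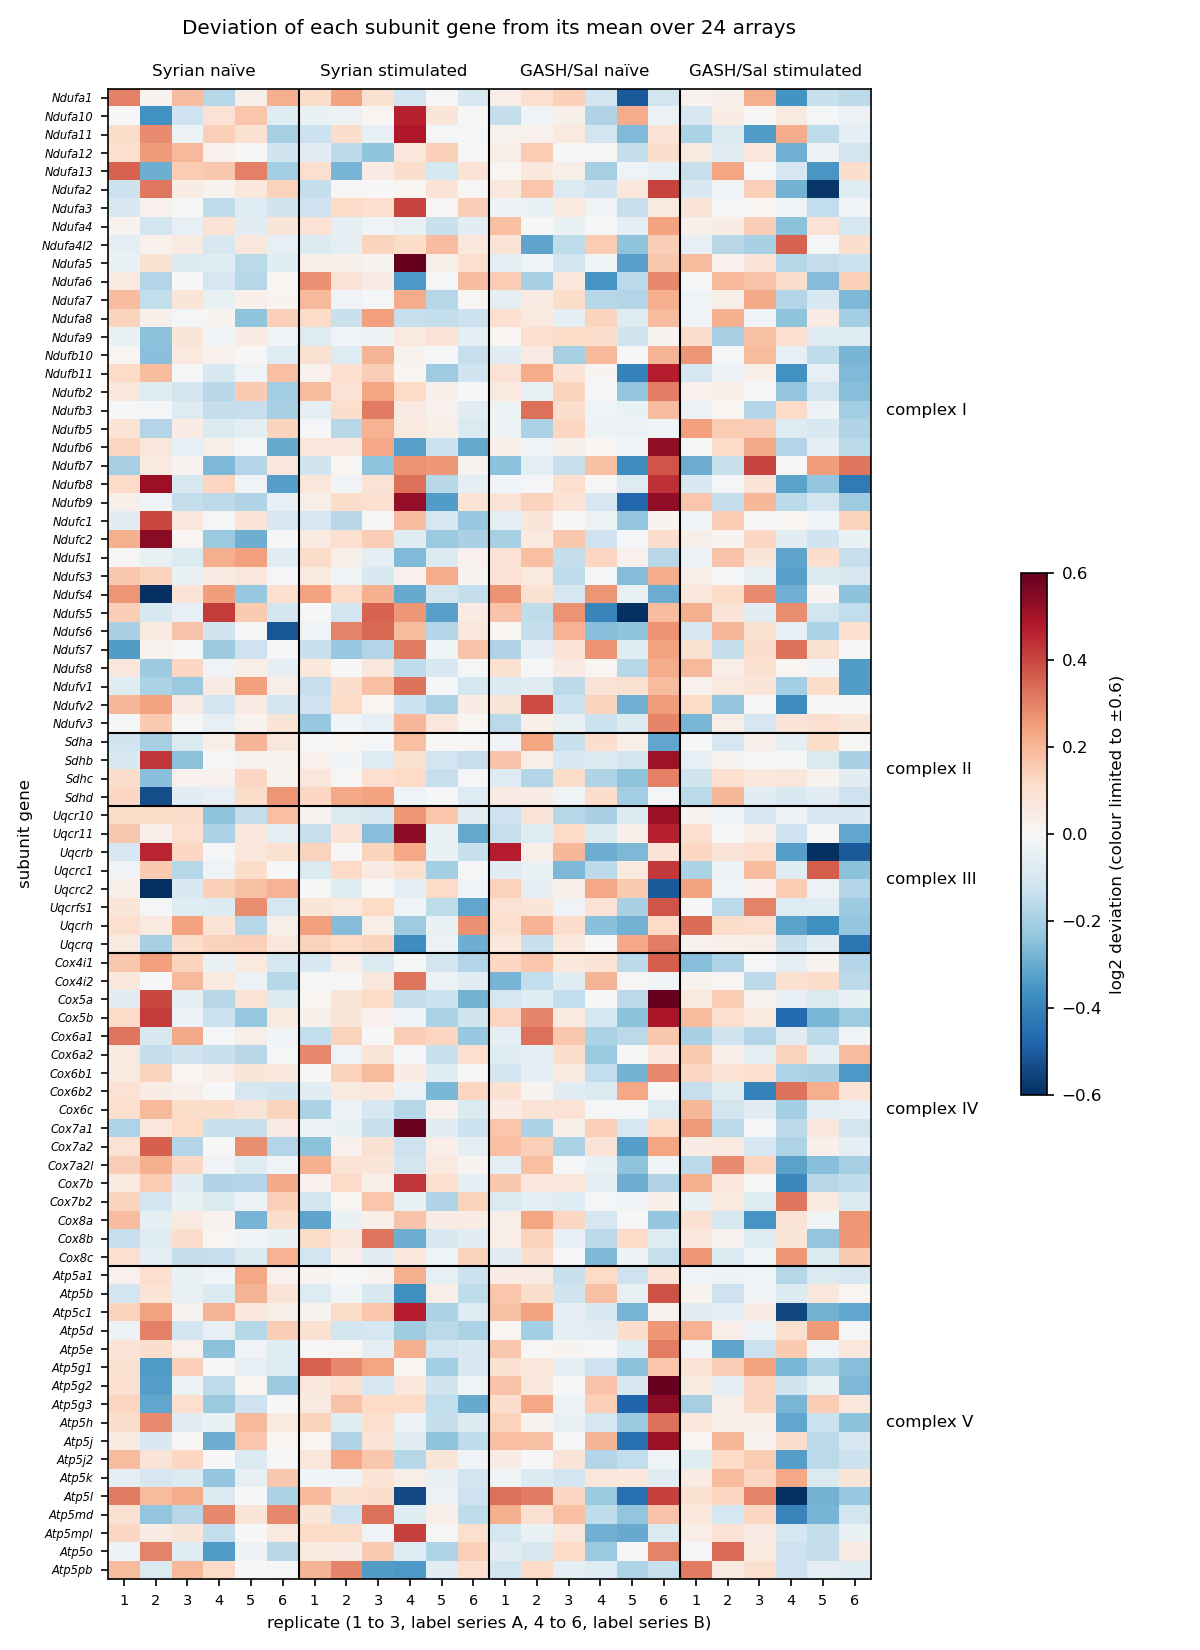
Rows are the 81 subunit genes by complex, columns the 24 arrays by group and replicate, and colour is the log2 deviation from the gene's mean, limited to 0.6 in either direction. The column of GASH/Sal naïve replicate 6 is red in most rows and that of replicate 5 blue in most, and single genes such as Uqcrc2 and Sdha go the other way in replicate 6.

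The comparison of stimulated with naïve GASH/Sal hamsters asked whether these transcripts differ 60 min after sound. Most subunits lay slightly lower in stimulated animals, with no difference that passed the test. Of the 81 differences (stimulated minus naïve) 54 were below 0, with a median of -0.043 (log2), beside 44.2% below 0 and a median of 0.013 over all genes. Limma called 0 members and 0 of 19938 genes (0%) at an adjusted p under 0.05. At an unadjusted p under 0.05, 7 members were lower and 0 higher, beside 1.58% of all genes lower and 2.88% higher. The medians were -0.037 in complex I, -0.015 in complex II, -0.081 in complex III, -0.029 in complex IV and -0.090 in complex V.

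Several single arrays set this count. Without GASH/Sal naïve replicate 6, 45 members were below 0, the median was -0.014, and 1 member was lower at an unadjusted p under 0.05 and 0 higher, beside 1.45% and 3.02% of all genes. The medians then were 0.0052 in complex I, -0.036 in complex II, -0.024 in complex III, -0.029 in complex IV and -0.010 in complex V. In label series A alone the median of all members was 0.024, and in series B alone it was -0.094, or -0.024 without replicate 6. The lower members numbered 13 without GASH/Sal naïve replicate 5, 3 without stimulated replicate 4 or 5, 2 without stimulated replicate 6 and 6 to 9 without any other array, and 2 when arrays were weighted. These counts have no share over all genes beside them, so they show only how the count of members depends on the arrays used. With all arrays and without naïve replicate 6, neuron markers differed by medians of 0.062 and -0.0076, oligodendrocyte markers by 0.13 and 0.14 and cytosolic ribosomal proteins by -0.10 and -0.078, and their part in the members' values was not tested.

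In complex IV, Cox4i1 (probe set 10576029) had the smallest p of all members in this comparison. It encodes the common isoform of subunit IV, a regulatory subunit that binds ATP. Its signal was 6.56, 6.81 and 7.07 (lowest, median and highest log2 signal) in naïve and 6.45, 6.59 and 6.73 in stimulated animals. The ranges overlapped, with all 6 stimulated arrays below the naïve mean. The difference was -0.22 ± 0.079 (SE), with a 95% interval of -0.38 to -0.055 and an adjusted p of 0.999, and it was -0.16 without replicate 6, -0.27 in series A and -0.17 in series B. Cox4i2, its isoform of low oxygen, differed by 0.038. Cox5b, a zinc-binding nuclear subunit, was next in complex IV with -0.20 ± 0.10 (SE) and -0.10 without replicate 6.

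In complex I the 3 members at an unadjusted p under 0.05 were accessory subunits. Ndufa2, of the NADH-oxidising end of the matrix arm, lay at 4.94, 5.12 and 5.46 (lowest, median and highest log2 signal) in naïve and 4.47, 4.97 and 5.20 in stimulated animals, and Ndufb11, of the membrane arm, at 6.93, 7.42 and 7.81 and 6.98, 7.26 and 7.37. The ranges overlapped for both. The lowest stimulated value of Ndufa2 was replicate 5, and the highest naïve value of both genes was replicate 6. The differences were -0.23 ± 0.10 (SE) for Ndufa2 and -0.21 ± 0.10 (SE) for Ndufb11 (adjusted p = 0.999 for both), and -0.16 and -0.11 without replicate 6. Ndufb8, another membrane-arm subunit, differed by -0.24 ± 0.11 (SE), with -0.15 without replicate 6, -0.031 in series A and -0.45 in series B. The core subunits of complex I ranged from -0.15 (Ndufv2) to 0.033 (Ndufs7), 5 of 6 below 0, and 0 of 6 had an unadjusted p under 0.05.

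Complex II ran from -0.13 for Sdhb, its iron-sulfur subunit, to 0.054 for Sdhc, a membrane anchor, and these were -0.033 and 0.13 without replicate 6. In complex III, Uqcrb, a small subunit beside the ubiquinone site, lay at 4.52, 4.88 and 5.30 in naïve and 4.18, 4.70 and 4.95 in stimulated animals. The groups overlapped, and the low end of the stimulated group was held by replicates of series B. The difference was -0.23 ± 0.11 (SE) (adjusted p = 0.999), and -0.19 without replicate 6, and its other 2 probe sets gave -0.23 and -0.24. Uqcrq differed by -0.18 ± 0.10 (SE), or -0.12 without replicate 6, against 0.034 in series A and -0.39 in series B. The core proteins Uqcrc1 and Uqcrc2 differed by 0.011 and 0.030 with all arrays, and by 0.10 and -0.083 without replicate 6.

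In complex V, Atp5c1 encodes the gamma subunit, the shaft that turns inside the catalytic head, and Atp5g2 encodes one of the copies of the ring subunit c. Atp5g2 lay at 7.18, 7.40 and 7.90 in naïve and 7.0, 7.22 and 7.40 in stimulated animals, and Atp5c1 at 5.61, 5.88 and 6.13 and 5.35, 5.72 and 5.94. Both pairs of ranges overlapped. The differences were -0.21 ± 0.10 (SE) for Atp5g2 and -0.20 ± 0.10 (SE) for Atp5c1 (adjusted p = 0.999 for both), and -0.11 and -0.18 without replicate 6. The 5 F1 genes had a median of -0.11, with 4 of 5 below 0, and -0.067 without replicate 6. The other c-ring genes, Atp5g1 and Atp5g3, differed by -0.024 and -0.10 with all arrays, and by 0.038 and 0.0016 without replicate 6.

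**Figure D3:**
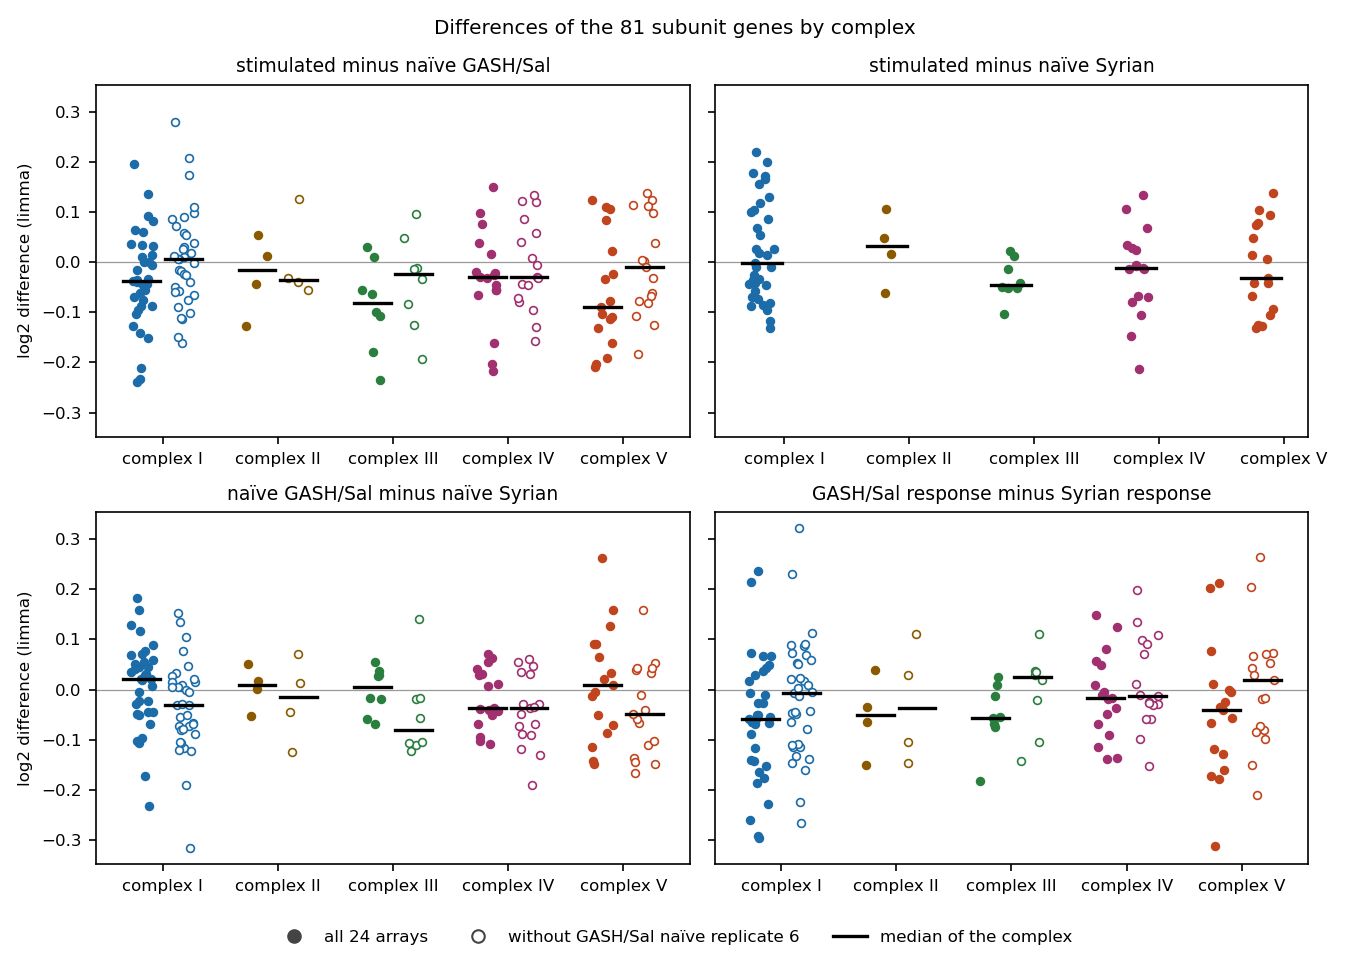
Each point is 1 subunit gene, placed by complex (x axis) and by its log2 difference from the limma fit (y axis), in 4 comparisons. Filled points are for all 24 arrays, open points for the fit without GASH/Sal naïve replicate 6 and lines for medians. The panel of stimulated minus naïve Syrian animals has filled points only. In stimulated minus naïve GASH/Sal the complex V median is -0.090 with all arrays and -0.010 without that array, and in naïve GASH/Sal minus naïve Syrian it is 0.0089 and -0.048.

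In control Syrian hamsters the same comparison gave differences on both sides of 0. Of the 81 members 45 were below 0, with a median of -0.011 beside 42.5% and 0.019 over all genes. No member and no gene was called by limma (0%). Lower at an unadjusted p under 0.05 was 1 member and higher were 3, beside 2.29% and 4.35% of all genes. The medians were -0.0013 in complex I, 0.032 in complex II, -0.046 in complex III, -0.012 in complex IV and -0.032 in complex V. Series A alone gave -0.0100 and series B alone -0.029 for all members.

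Cox6c, a small nuclear subunit of complex IV (probe set 10400470), was the only member whose 6 and 6 arrays did not overlap in any of the comparisons of a pair of groups. Its signal was 4.45, 4.48 and 4.57 (lowest, median and highest log2 signal) in naïve and 4.18, 4.28 and 4.40 in stimulated animals. All stimulated arrays lay below the lowest naïve array. The difference was -0.21 ± 0.066 (SE), with a 95% interval of -0.35 to -0.079, -0.24 in series A and -0.18 in series B, and its adjusted p was 0.682. Among all genes 0.0953% did not overlap in this comparison in the lower direction and 0.196% in the higher. A second probe set of Cox6c differed by -0.014, so that the separation was seen in 1 of its 2 probe sets. In GASH/Sal animals the kept probe set differed by -0.065 after sound. No member was separated in the other pairs, where the shares over all genes, lower and higher, were 0.0752% and 0.15% for sound in GASH/Sal, 0.186% and 0.0853% for the strains without sound, and 0.125% and 0.125% for the strains after sound.

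The 3 members on the higher side were complex I accessory subunits. Ndufa3 lay at 5.5, 5.57 and 5.68 (lowest, median and highest log2 signal) in naïve and 5.53, 5.76 and 6.06 in stimulated animals, Ndufs6, which binds zinc in the matrix arm, at 5.28, 5.72 and 5.96 and 5.61, 5.92 and 6.13, and Ndufa5 at 6.02, 6.10 and 6.27 and 6.19, 6.21 and 6.82. Without Syrian stimulated replicate 4 no member was on the higher side and 2 were on the lower. Without Syrian naïve replicate 6 there was 1 higher member, without Syrian stimulated replicate 5 or GASH/Sal naïve replicate 6 there were 5, and without any other array 2 to 4. Shares over all genes are not given for these fits. All 3 pairs of ranges overlapped, and Syrian stimulated replicate 4 was the highest array of its group for Ndufa3 and Ndufa5. The differences were 0.18 ± 0.074 (SE), 0.22 ± 0.10 (SE) and 0.20 ± 0.10 (SE), with adjusted p of 0.726, 0.744 and 0.744. Cox4i1 lay at 6.60, 6.81 and 6.96 in naïve and 6.53, 6.62 and 6.75 in stimulated Syrian animals, a difference of -0.15 ± 0.079 (SE). Sdhd, a membrane anchor of complex II, differed by 0.11 ± 0.10 (SE), with 0.36 in series A and -0.14 in series B. Uqcrq and Uqcrfs1 of complex III differed by -0.10 and -0.052. In complex V the catalytic beta subunit Atp5b differed by -0.13 ± 0.082 (SE) and Atp5g1 by 0.14 ± 0.090 (SE).

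Averaged over both strains, the sound response was below 0 for 50 members, with a median of -0.021 beside 0.015 over all genes. By limma 0 members and 1 of 19938 genes were called (0.00502%). The unadjusted threshold of 0.05 was passed by 6 members on the lower and 1 on the higher side, beside 2.17% and 5.22% of all genes. Cox4i1 had the smallest p of these, with -0.18 ± 0.056 (SE) (adjusted p = 0.425), followed by Cox6c with -0.14 ± 0.047 (SE) (adjusted p = 0.509). The second probe set of Cox6c did not share this, with 0.037 for sound in GASH/Sal and -0.014 in Syrian animals. The other lower members were Ndufa2 (-0.16), Ndufb11 (-0.14), Atp5b (-0.13) and Atp5l (-0.16), and the higher one was Cox6a2 (0.12), the muscle isoform of subunit VIa. Cox4i1 lay below 0 in both series, at -0.25 in A and -0.12 in B, and at -0.15 without GASH/Sal naïve replicate 6. For all members the median was 0.024 in series A and -0.050 in series B. Given without shares over all genes, lower members numbered 12 without GASH/Sal naïve replicate 5, 10 without Syrian stimulated replicate 4, 2 without GASH/Sal stimulated replicate 4 and 4 to 8 without any other array but GASH/Sal naïve replicate 6. The fit without the latter gave a median of -0.0045, with 2 members lower (Cox4i1 and Cox6c) and 5 higher (Ndufs6, Cox6a2, Ndufa5, Ndufa6 and Ndufb7) at an unadjusted p under 0.05, beside 2.02% and 5.09% of all genes.

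**Figure D4:**
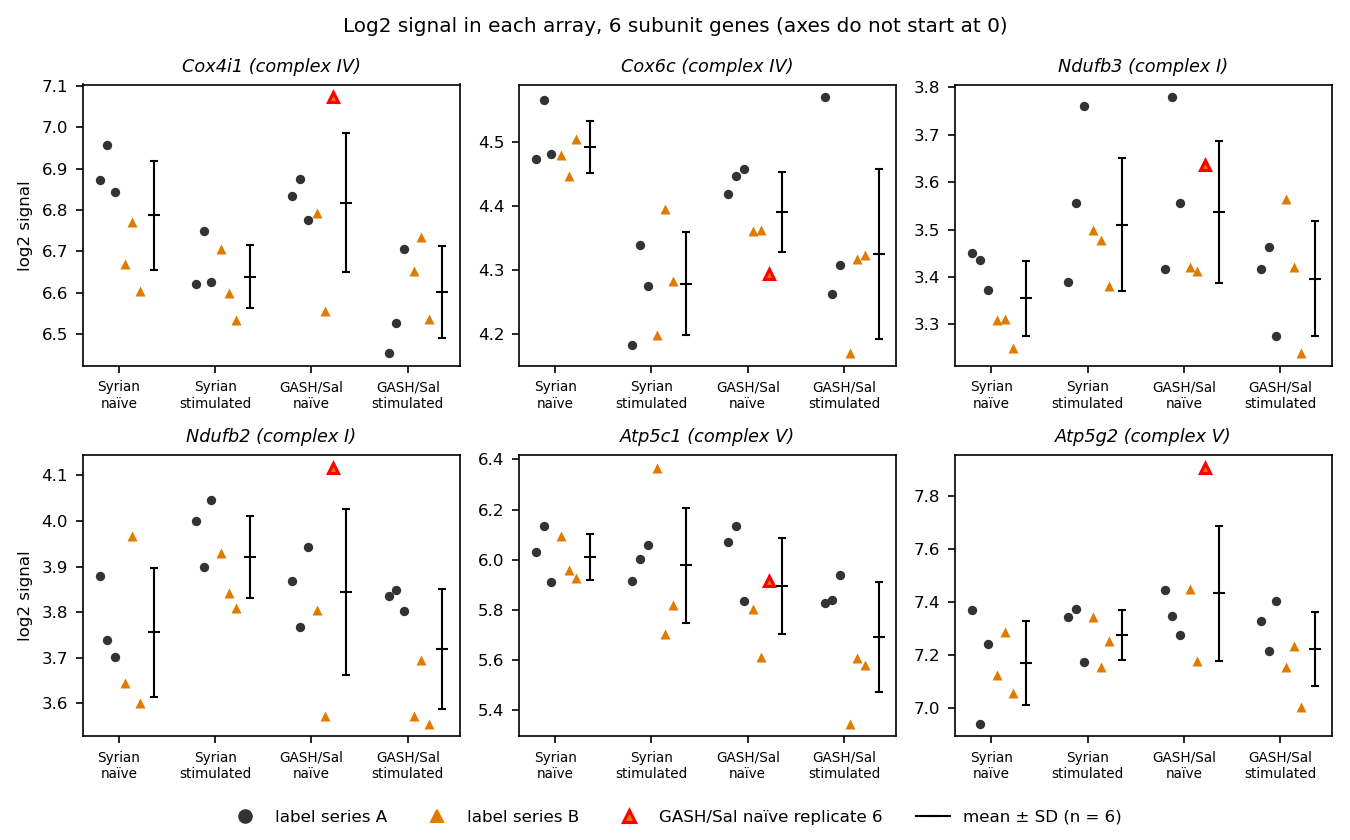
Each panel shows the log2 signal (y axis, not starting at 0) of 1 subunit gene in the 24 arrays by strain and sound (x axis), with circles for label series A, triangles for series B and bars for mean ± SD of 6 arrays. The stimulated arrays of Cox6c in Syrian animals, at 4.18 to 4.40, all lie under the naïve ones, at 4.45 to 4.57, and no other comparison of a pair of groups is free of overlap in these 6 genes.

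Without sound, no member passed the test between the strains, and the sign of the members' median turned with 1 array. With all arrays 36 of 81 members were lower in naïve GASH/Sal than in naïve Syrian animals, with a median of 0.011 beside 54.2% and -0.011 over all genes. Without GASH/Sal naïve replicate 6, 53 were lower and the median was -0.041, beside 56.2% and -0.016. Limma called 0 members and 0 genes (0%) with all arrays, and 0 members and 13 genes without replicate 6. At an unadjusted p under 0.05, 1 member was lower and 2 were higher, beside 3.74% and 2.29% of all genes. Without replicate 6 there were 4 lower (Cox6b1, Ndufa1, Atp5mpl and Ndufs5) and 0 higher, beside 4.3% and 4.49%. Without replicate 5 of the same group there were 0 lower and 5 higher, and leaving out any other array gave 0 to 2 lower and 1 to 3 higher. Single-array counts here carry no share over all genes, except those without replicate 6. Quantile normalisation of the arrays also turned the sign, to -0.0020 beside -0.00021 over all genes. Series A alone gave -0.0080 and series B alone 0.012, or -0.061 without replicate 6. The medians were 0.021 in complex I, 0.0086 in complex II, 0.0049 in complex III, -0.037 in complex IV and 0.0089 in complex V with all arrays, and -0.030 in complex I, -0.015 in complex II, -0.080 in complex III, -0.037 in complex IV and -0.048 in complex V without replicate 6.

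Atp5g2 (probe set 10560816) had the smallest p. It lay at 6.94, 7.18 and 7.37 (lowest, median and highest log2 signal) in Syrian and 7.18, 7.40 and 7.90 in GASH/Sal animals. The ranges overlapped, and the highest GASH/Sal value was replicate 6. The difference was 0.26 ± 0.10 (SE) (adjusted p = 0.764), 0.16 without that array, and 0.17 and 0.26 in its other 2 probe sets. Ndufb3, of the membrane arm of complex I, lay at 3.25, 3.34 and 3.45 in Syrian and 3.41, 3.49 and 3.78 in GASH/Sal animals, with overlap at a few arrays and all 6 GASH/Sal arrays above the Syrian mean. It differed by 0.18 ± 0.077 (SE) (adjusted p = 0.785), and by 0.16 in series A and 0.20 in series B. Ndufa1, a small subunit needed to assemble the membrane arm, lay at 6.52, 6.80 and 7.0 and 6.19, 6.66 and 6.84 with overlap and differed by -0.17 ± 0.082 (SE) (adjusted p = 0.811).

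In the other complexes the members with the smallest p were Sdhc (-0.052 ± 0.085 (SE)), Uqcrb (-0.069 ± 0.11 (SE)), Uqcrfs1 (0.054 ± 0.094 (SE)), Cox6b1 (-0.11 ± 0.083 (SE)), Cox6c (-0.10 ± 0.066 (SE)) and Atp5mpl (-0.15 ± 0.076 (SE)). Uqcrfs1 turned to -0.020, and Sdhc and Uqcrb lay at -0.12 and -0.11, without replicate 6. Cox6b1, a subunit on the outer face of complex IV, was at -0.19 without it. Ndufs5 had a low array in the naïve GASH/Sal group, replicate 5 at 3.01, with the other groups from 3.69 upward, and its difference was -0.23 ± 0.15 (SE), or -0.32 without replicate 6.

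After sound, 52 of 81 members were lower in GASH/Sal than in Syrian animals, with a median of -0.034 beside 56.0% and -0.014 over all genes. Neither a member nor any gene was called by limma (0%). On the lower side 3 members and on the higher side 1 had an unadjusted p under 0.05, beside 3.6% and 1.82% of all genes. Lower members numbered 6 without Syrian stimulated replicate 1 or GASH/Sal stimulated replicate 3, 5 without Syrian stimulated replicate 3 or GASH/Sal stimulated replicate 1 or 2, and 2 to 4 without any other array. No shares over all genes stand beside these counts. The medians were -0.034 in complex I, -0.024 in complex II, -0.033 in complex III, 0.0026 in complex IV and -0.051 in complex V. That of complex III turned to 0.027 without GASH/Sal stimulated replicate 6, and that of complex IV to -0.047 without Syrian stimulated replicate 1. Series A alone gave -0.0046 and series B alone -0.044 for all members. GASH/Sal naïve replicate 6 enters this comparison only through the shared estimate of the spread.

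Atp5c1 (probe set 10479996) had the smallest p here. It lay at 5.70, 5.96 and 6.37 (lowest, median and highest log2 signal) in Syrian and 5.35, 5.72 and 5.94 in GASH/Sal animals. The ranges overlapped, and all 6 GASH/Sal arrays lay below the Syrian mean, whose highest array was replicate 4. The difference was -0.29 ± 0.10 (SE) with a 95% interval of -0.48 to -0.091 (adjusted p = 0.887), -0.12 in series A and -0.45 in series B. Another subunit of the central stalk, Atp5d, went the other way, at 5.79, 5.87 and 6.09 in Syrian and 5.97, 6.07 and 6.26 in GASH/Sal animals, a difference of 0.21 ± 0.087 (SE) (adjusted p = 0.896). Ndufb2 of the complex I membrane arm lay at 3.81, 3.91 and 4.04 and 3.56, 3.75 and 3.85. Its ranges touched only between 3.81 and 3.85, and it differed by -0.20 ± 0.081 (SE) (adjusted p = 0.896). Uqcrb lay at 4.69, 4.89 and 5.05 and 4.18, 4.70 and 4.95 with overlap and differed by -0.25 ± 0.11 (SE), with 0.0096 in series A and -0.51 in series B.

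The remaining members of smallest p in their complexes were Ndufb8 (-0.21 ± 0.11 (SE)), Sdhd (-0.13 ± 0.10 (SE)), Uqcr10 (-0.085 ± 0.10 (SE)), Cox7b (-0.18 ± 0.094 (SE)) and Cox7a2l (-0.14 ± 0.075 (SE)). A second, dimmer probe set of Cox7b gave 0.025, and that of Cox7a2l gave -0.084. All 4 complex II genes were below 0, from -0.13 to -0.014.

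Averaged over both sound conditions, GASH/Sal animals were lower for 47 of 81 members, with a median of -0.0100 beside -0.015 over all genes. The limma fit called 0 members and 2 of 19938 genes (0.01%). With an unadjusted p under 0.05 there were 6 lower members and 0 higher, beside 5.06% and 2.93% of all genes. Atp5c1 led with -0.20 ± 0.068 (SE) (adjusted p = 0.491), and the others were Atp5mpl (-0.14), Ndufa1 (-0.14), Atp5j2 (-0.11), Cox7a2l (-0.12) and Uqcrb (-0.16). Ndufs7 differed by 0.13, Cox6b1 by -0.11, Uqcrh by -0.064 and Sdhd by -0.059. Without GASH/Sal naïve replicate 6 the median was -0.041, with 9 members lower and 0 higher, beside 5.65% and 4.59% of all genes, and the smallest adjusted p of a member was 0.233 (Cox6b1). Lower members numbered 3 without GASH/Sal naïve replicate 5 or Syrian stimulated replicate 5, and 4 to 9 without any other array. A share over all genes is given only for the fit without replicate 6. After centring each array on its median, 45.7% of the members were below 0 in place of 58.0%, with a median of 0.011. In series A alone the median was 0.000060, and in series B alone -0.031, or -0.069 without replicate 6.

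Whether the response to sound differed between the strains was tested as the GASH/Sal response minus the Syrian response. The paper describes seizures after sound in GASH/Sal animals only, so this contrast does not separate strain from seizure. Of the 81 values 58 were below 0, with a median of -0.050 beside 51.0% and -0.0030 over all genes, and without GASH/Sal naïve replicate 6 there were 42 below 0 and a median of -0.0070. For this contrast limma called no member and no gene (0%). Unadjusted p under 0.05 were found for 3 lower and 0 higher members, beside 1.93% and 1.75% of all genes, and without replicate 6 the count was 2 lower (Ndufb3 and Ndufb2) and 1 higher (Atp5d), beside 2.41% and 2.4%. The medians were -0.058 in complex I, -0.050 in complex II, -0.056 in complex III, -0.017 in complex IV and -0.040 in complex V, and without replicate 6 they were -0.0070 in complex I, -0.037 in complex II, 0.024 in complex III, -0.013 in complex IV and 0.018 in complex V. Series A alone gave 0.0026 and series B alone -0.087 for all members, or -0.00052 without replicate 6.

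Ndufb3 and Ndufb2, both of the complex I membrane arm, had opposite signs of difference in the strains. Both were dim, at percentiles 16.6 and 23.5 of signal. Ndufb3 differed after sound by 0.16 in Syrian and -0.14 in GASH/Sal animals, and Ndufb2 by 0.17 and -0.13. The ranges of the groups overlapped in each strain. The differences of the responses were -0.30 ± 0.11 (SE) and -0.29 ± 0.11 (SE) (adjusted p = 0.99996 for both), -0.27 and -0.22 without replicate 6, and negative in both label series. Atp5g2 gave -0.31 ± 0.14 (SE) and -0.21 without replicate 6. The other members of smallest p were Sdhd (-0.15), Uqcrb (-0.18), Uqcrq (-0.075), Cox6c (0.15), Cox8c (0.12) and Atp5d (0.21).

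Complex IV has isoform pairs that differ between tissues, and all 13 listed genes were measured. The forms common to most tissues, Cox4i1, Cox6a1, Cox6b1, Cox7a2, Cox7b and Cox8a, lay at percentiles 90.7, 30.0, 96.9, 15.9, 85.0 and 94.3 of signal, and those known from lung, muscle or testis, Cox4i2, Cox6a2, Cox6b2, Cox7a1, Cox7b2, Cox8b and Cox8c, at 67.6, 73.7, 53.6, 40.7, 7.24, 36.9 and 34.7. A percentile of a mouse probe set on hamster RNA does not rank the isoforms. The medians of the 13 differences were -0.025 for sound in GASH/Sal, -0.0049 for sound in Syrian, -0.037 for the strains without sound and 0.0026 after it. In the fit without GASH/Sal naïve replicate 6, those for sound in GASH/Sal and for the strains without sound were -0.0064 and -0.028. Only Cox4i1 (sound in GASH/Sal and averaged sound) and Cox6a2 (averaged sound) had an unadjusted p under 0.05 with all arrays.

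The flavin and iron-sulfur subunits carry the electrons themselves. Over all 24 arrays the flavin subunits Ndufv1 and Sdha ranged from 6.37 to 7.03 and from 7.59 to 8.14 (log2 signal). The iron-sulfur subunits Ndufs1, Ndufs7, Ndufs8, Ndufv2, Sdhb and Uqcrfs1 ranged from 7.03 to 7.60, 6.57 to 7.24, 6.38 to 6.94, 4.95 to 5.71, 6.07 to 6.83 and 6.10 to 6.79. None of these 8 genes had an unadjusted p under 0.05 in any of the 7 contrasts with all arrays, beside the shares of all genes given for each contrast. The smallest p among them was that of Ndufs7 for the averaged strain difference, 0.13 ± 0.063 (SE) (adjusted p = 0.618). In complex V the catalytic genes Atp5a1 and Atp5b ranged from 7.35 to 7.76 and from 7.38 to 8.13, and Atp5b was the only one of this pair with an unadjusted p under 0.05, for averaged sound.

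The label series, not strain or sound, was where members passed the test, in a contrast added after the data were seen. Limma called 9 of 81 members lower in series B than in series A and 0 higher, beside 1.02% of all genes lower and 5.87% higher. All 9 called members were therefore on the side that held the smaller share of all calls. Of the 81 differences (B minus A) 58 were below 0 (71.6%), with a median of -0.054 beside 37.8% and 0.028 over all genes. The medians were -0.057 in complex I, -0.0033 in complex II, -0.038 in complex III, -0.051 in complex IV and -0.089 in complex V, and the called members numbered 2, 0, 2, 2 and 3. Each series holds the same groups, so the contrast is balanced over strain and sound. What separates the series cannot be read from the labels, and its cause was not tested.

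In complex V, Atp5l lay at 8.10, 8.20 and 8.34 (lowest, median and highest) in series A and 7.35, 7.80 and 8.42 in series B. Its 12 and 12 arrays overlapped through GASH/Sal naïve replicate 6, the highest array of series B. The difference was -0.40 ± 0.076 (SE, adjusted p = 0.00115), all 6 of its probe sets were below 0, from -0.44 to -0.26, and the differences within naïve Syrian, stimulated Syrian, naïve GASH/Sal and stimulated GASH/Sal animals were -0.33, -0.36, -0.34 and -0.56. Atp5j2, subunit f of the membrane part, lay at 9.07, 9.24 and 9.38 (lowest, median and highest) in series A and 8.81, 9.04 and 9.22 in series B, a difference of -0.20 ± 0.047 (SE, adjusted p = 0.00863). Atp5g1 differed by -0.22 ± 0.064 (SE, adjusted p = 0.0275). In complex I, Ndufa1 lay at 6.71, 6.80 and 7.0 (lowest, median and highest) in series A and 6.19, 6.58 and 6.91 in series B, and differed by -0.25 ± 0.058 (SE, adjusted p = 0.00643) and, within the 4 groups in the same order, by -0.14, -0.21, -0.34 and -0.30. Ndufc2, a membrane-arm subunit, differed by -0.21 ± 0.063 (SE, adjusted p = 0.0366).

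In complex III, Uqcrb lay at 4.72, 4.95 and 5.30 (lowest, median and highest) in series A and 4.18, 4.73 and 5.05 in series B. Its difference was -0.29 ± 0.075 (SE, adjusted p = 0.0141), with -0.11, -0.072, -0.40 and -0.59 in the 4 groups. Uqcrh, the hinge protein beside cytochrome c1, differed by -0.23 ± 0.071 (SE, adjusted p = 0.0488), with -0.15, 0.0013, -0.27 and -0.49 in the groups. In complex IV, Cox5b differed by -0.24 ± 0.070 (SE, adjusted p = 0.0322) and Cox7a2l by -0.21 ± 0.053 (SE, adjusted p = 0.0147). For the other 8 of the 9 genes the mean of series B was lower in all 4 groups, and for Uqcrh in 3 groups. The ranges of both series overlapped for each of them.

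Without GASH/Sal naïve replicate 6 the count was 11 of 81 lower and 0 higher (1.02% of all genes lower), with a median of -0.077, and without Syrian stimulated replicate 4 as well it was 15 of 81 (1.14% of all genes lower), with a median of -0.089. Leaving out any other single array gave 6 to 10, beside 152 to 270 of all 19938 genes lower. Atp5g1, Cox5b, Ndufc2 and Uqcrh passed the threshold or missed it depending on the array left out, and Uqcrh also missed it after quantile normalisation and with a trended, robust variance model. Atp5l, Ndufa1, Atp5j2, Uqcrb and Cox7a2l passed under each alternative that was run.

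**Figure D5:**
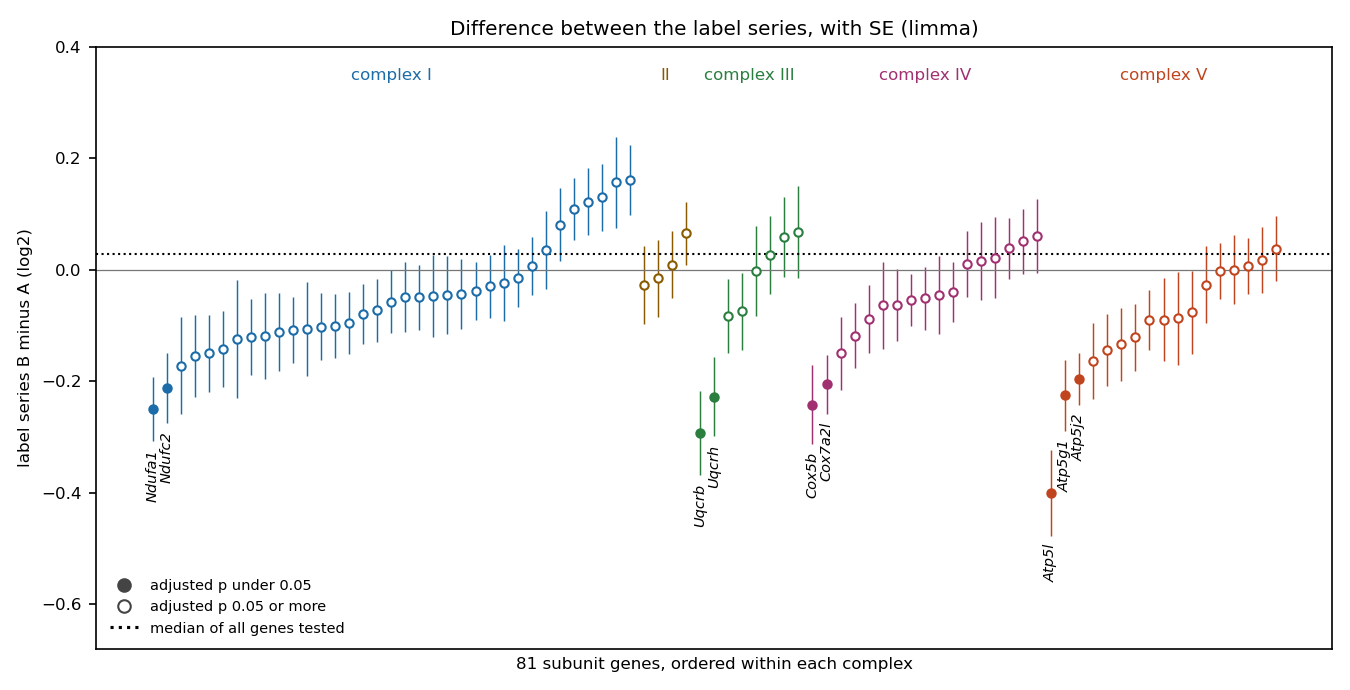
Each point is 1 of the 81 subunit genes, grouped by complex (x axis), with its log2 difference between label series B and A from the limma fit (y axis) and its standard error as a bar, filled where the adjusted p is under 0.05. The 9 filled points lie between -0.40 (Atp5l) and -0.20 (Atp5j2), below the dotted median of all genes at 0.028.

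Beside the members, 30 of 63 cytosolic ribosomal protein genes were called lower in series B and 0 higher, with a median of -0.21, while mitochondrial ribosomal proteins had 1 lower and 1 higher of 77 and a median of -0.011. The tricarboxylic acid cycle had 1 of 17 called higher and a median of 0.026, carriers and channels 1 of 14 and 0.022, and glycolysis 1 of 13 and -0.035. Of 5 related genes outside the symbol rule 1 was called higher, with a median of -0.0055. Biogenesis regulators had 0 of 15 called and a median of 0.043, and assembly factors 1 of 42 called lower and -0.0096. Over all genes 1.02% were called lower and 5.87% higher. Neuron markers had 5 of 14 called higher and a median of 0.035, astrocyte markers 2 of 10 and 0.050, oligodendrocyte markers 2 of 10 and 0.060, vessel markers 1 of 10 and 0.10, and cerebellum markers 2 of 14 and 0.055. Blood markers had 1 of 2 called lower and -0.045, choroid plexus markers 0 of 11 called and -0.041, and microglia markers 0 of 10 called and 0.061. Of 2 measured subunits encoded by mitochondrial DNA, 1 was called lower, with a median of -0.058. Their mean log2 signal was 2.32 to 2.78 over the arrays. The part of these lists in the members' values was not tested.

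Other genes of mitochondrial energy supply gave no call in the contrasts of strain and sound. Limma called 0 of the 42 assembly factors, 17 genes of the tricarboxylic acid cycle, 13 of glycolysis, 15 regulators of mitochondrial biogenesis, 14 carriers and channels and 5 related genes outside the symbol rule in all 7 contrasts. For sound in GASH/Sal the medians were 0.0021, -0.025, -0.049, 0.0096, -0.040 and -0.0033 in that order, and without GASH/Sal naïve replicate 6 they were 0.018, -0.032, -0.046, 0.033, -0.023 and 0.037. Those for sound in Syrian animals were 0.021, 0.050, 0.065, 0.053, 0.039 and -0.046.

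At an unadjusted p under 0.05, sound in GASH/Sal had 4 assembly factors lower (Ndufaf3, Ndufaf5, Ecsit and Surf1) and 0 higher of 42, beside 1.58% and 2.88% of all genes, and without naïve replicate 6 there were 0 lower and 1 higher (Ttc19). Citrate synthase Cs, the entry enzyme of the cycle, had a difference of -0.17 ± 0.075 (SE), or -0.13 without that array. Gabpa, a transcription factor of nuclear genes for mitochondria, lay on the other side with 0.22 ± 0.090 (SE), or 0.13 without it. In naïve animals Cs, the cycle enzyme Idh3g and Tfam, which packs and transcribes mitochondrial DNA, had GASH/Sal minus Syrian differences of 0.18 ± 0.075 (SE), 0.27 ± 0.11 (SE) and 0.25 ± 0.10 (SE), and 0.14, 0.27 and 0.23 without replicate 6. Ldha, the lactate dehydrogenase subunit of muscle type, had differences of -0.19 ± 0.088 (SE) in naïve and -0.26 ± 0.088 (SE) in stimulated animals, and the averaged difference of -0.22 ± 0.062 (SE) had an adjusted p of 0.410. Without replicate 6 the naïve difference of Ldha was -0.16. At an unadjusted p under 0.05, 2 of 17 cycle genes, 1 of 15 biogenesis regulators, 1 of 14 carriers and 1 of 13 glycolysis genes were higher in naïve GASH/Sal. On the lower side was 1 glycolysis gene, beside 2.29% of all genes higher and 3.74% lower. Without replicate 6 glycolysis had 0 on either side. After sound 2 glycolysis genes were lower and 0 higher, beside 3.6% and 1.82% of all genes.

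Marker lists of cell types gave 0 calls in the contrasts of strain and sound. Between the strains, neuron markers differed by medians of 0.083 without and 0.080 after sound, oligodendrocyte markers by 0.082 and 0.13, astrocyte markers by 0.052 and -0.068, microglia markers by 0.016 and -0.034 and vessel markers by -0.046 and -0.0015. The medians of the blood, choroid plexus and cerebellum lists were -0.056, 0.024 and 0.0058 without sound, and -0.070, -0.017 and -0.0024 after it. Mitochondrial ribosomal proteins, encoded in the nucleus like the members, had 0.0098 and -0.027, and cytosolic ones 0.012 and -0.070. Without GASH/Sal naïve replicate 6 the medians without sound were 0.064 for neuron, 0.065 for oligodendrocyte, 0.037 for astrocyte, -0.0072 for microglia, -0.11 for vessel, -0.066 for blood, 0.020 for choroid plexus and -0.022 for cerebellum markers, and -0.0083 and -0.037 for mitochondrial and cytosolic ribosomal proteins. The part of these lists in the members' values was not tested. All comparisons with naïve GASH/Sal or stimulated Syrian animals draw on the same arrays, so their values are not independent of each other.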

How the data were processed

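RNA from the IC of 24 hamsters was read on 24 mouse gene arrays. The deposited table holds log2 expression values that the authors' processing notes credit to RMA (background correction, quantile normalisation and probe set summary, version not stated). It has 35556 probe sets, of which 21789 name 1 symbol, 1621 several and 12146 none. Each of 19938 symbols was represented by its probe set of highest mean signal. Array medians lay between 4.50 and 4.65, and 0 sample columns were left unused. The number of arrays, 6 per group, limits the precision.

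All 24 arrays entered 1 limma 3.58.1 fit (R 4.3.3, lmFit and eBayes) with 4 groups and the label series, leaving 19 residual degrees of freedom, for 7 contrasts. P-values are two-sided and adjusted over 19938 genes by the method of Benjamini and Hochberg, with a threshold of 0.05. They measure the spread between animals. The study's methods state no model for these arrays. The fit was tested on simulated data.

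Named were core subunits, complex IV isoforms and F1 genes, the 2 members of smallest p in complexes I, III, IV and V and the 1 in complex II per contrast, members that passed, members without overlap and those of largest and smallest spread. Any others were chosen after their values were seen. Members and lists were chosen with earlier results of these data known. Rps6k kinases were taken out of the cytosolic ribosomal list. Alternatives changed the scaling, filter, probe set rule, variance model and samples, and those added after seeing the data are 1 contrast of the label series and the fits without 2 arrays or without replicate 6 in series B.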

Additional observations from a re-analysis of the deposited data

Results flagged for a closer look

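In groups of 6 arrays, 1 array stood far from the other 5 in 10 of 148 groups tested. Chance gives about 1 such group in 20. Among complex I genes these were Ndufa2 in Syrian stimulated replicate 1, at 4.91 (log2), and Ndufb8 in GASH/Sal naïve replicate 6, at 5.90. In complex II they were Sdhc in Syrian naïve replicate 2, at 6.3998, and Sdhd in GASH/Sal stimulated replicate 2, at 5.87. Uqcrq of complex III stood apart in Syrian naïve replicate 2, at 4.06, and in GASH/Sal stimulated replicate 6, at 3.82. Cox7b of complex IV did so in Syrian stimulated replicate 4, at 6.72. In complex V the arrays were GASH/Sal naïve replicate 6 for Atp5g2, at 7.90, Syrian stimulated replicate 4 for Atp5mpl, at 7.57, and Syrian stimulated replicate 1 for Atp5d, at 6.09. The arrays involved included GASH/Sal naïve replicate 6 and Syrian stimulated replicate 4 in 2 groups each.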

How the results depend on the processing

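No member was called in the 7 contrasts of strain and sound under any alternative that was run. When each probe set counted in the label series contrast, 18 of 105 were called lower, beside 354 of the 21789 probe sets with 1 symbol. A gene can enter that count more than once, as Atp5l does with 6 probe sets. With 1 probe set per gene, 9 members were called lower, beside 1.02% of all genes. That count was 15, beside 1.14%, without GASH/Sal naïve replicate 6 and Syrian stimulated replicate 4. Leaving out single arrays gave 6 to 11, beside 152 to 270 of all 19938 genes lower. Of the 42 medians of all members and of each complex in the 7 contrasts, 23 changed sign when some single array was left out. For the strain difference without sound, the median of all members was -0.061 in label series B without GASH/Sal naïve replicate 6, against 0.011. Values of named genes under the alternatives kept their direction and their side of the threshold in 2570 cases, missed the threshold in 42, all in the label series contrast, and changed sign in 23, mostly within 1 label series of 12 arrays. The cause was not tested. In series A alone, sound response in GASH/Sal: Uqcrq was 0.034, sound response in Syrian: Uqcrq was 0.14 and sound response in Syrian: Uqcrfs1 was 0.086. Also in series A, strain difference without sound: Uqcrb was 0.075, strain difference after sound: Uqcrb was 0.0096, strain difference after sound: Uqcr10 was 0.023 and strain difference after sound: Cox7b was 0.033. The averages there were 0.089 for sound response averaged over strains: Uqcrq, 0.042 for strain difference averaged over sound conditions: Uqcrb and 0.089 for strain difference averaged over sound conditions: Uqcrh. In series B, with or without replicate 6, sound response in Syrian: Sdhd was -0.14 and sound response in Syrian: Atp5g1 was -0.053, and difference of the sound responses: Sdhd was 0.088 with it and 0.10 without. Without it, series B gave 0.00021 for sound response in GASH/Sal: Sdhb, 0.024 for difference of the sound responses: Uqcrq and -0.084 for strain difference without sound: Uqcrfs1. Leaving out single arrays, sound response in Syrian: Sdhd ran from -0.0033 to 0.17, sound response in Syrian: Uqcrfs1 from -0.079 to 0.013 and strain difference without sound: Uqcrfs1 from -0.020 to 0.12, and the last was -0.021 without both arrays.

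The labels number replicates alike in each group, and deviations of same-numbered arrays from their group means correlated at -0.16 to 0.32, so the numbers were not taken as pairs. Each number occurs once in every group, so the replicate block leaves each group difference as it was by construction (a median of -0.043 for sound in GASH/Sal) and changes only the errors. With it 0 members were called, and 8 in place of 7 were lower at an unadjusted p under 0.05 in limma.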
